A study of Mus musculus with 9 samples.

Results

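Trp53, which encodes p53, and Trp63, which encodes the related factor p63, were examined with 8 genes that p53 is known to switch on: Mdm2, Cdkn1a, Ccng1, Gadd45a, Sesn1, Phlda3, Bax and Zmat3. These 10 genes were taken by symbol from the 55536 genes of the deposited tables, and all 10 had enough reads to be among the 14414 genes tested. The libraries came from muscle of male ICR mice, an outbred stock, in 3 groups of 3. The aged GW8510 mice were 18 months old and received GW8510 at 2 mg/kg intraperitoneally once a day for 14 days (libraries 1, 3 and 4). The aged vehicle mice were also 18 months old and received the sodium carboxymethylcellulose vehicle (libraries 1, 3 and 4). The young vehicle mice were 2 months old (libraries 2, 3 and 4), and no young mice received GW8510. The labels name no engineered allele, do not say which muscle was taken and do not say that each library was a separate animal, so p-values measure the spread between libraries, which may be technical.

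p53 is a transcription factor that is kept at a low level by Mdm2, the ubiquitin ligase that marks it for destruction, and that accumulates after DNA damage and other stresses. It then raises genes that stop the cell cycle (Cdkn1a, Ccng1, Gadd45a), restrain growth signalling (Sesn1, Phlda3), open the mitochondrial outer membrane in apoptosis (Bax) or bind RNA (Zmat3), and it also raises Mdm2, which closes a feedback loop. In muscle, Cdkn1a and Gadd45a are also known to rise when fibres lose their nerve supply or waste. GW8510 is a benzenesulfonamide, the series title names p21-activated kinases beside it, and it is also known as an inhibitor of cyclin-dependent kinases. The p21-activated kinases are named for small GTPases, not for the cyclin-dependent kinase inhibitor p21 that Cdkn1a encodes.

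The start of each gene was read for the letters that p53 is known to bind. Trp53 and Trp63 are in the set as family genes, and the other 8 were chosen because p53 is known to switch them on. A share of matches above that of all promoters can therefore come from this choice. RefSeq promoters (GRCm38.p6, 250 bases before to 50 bases after a start) were matched for 8 members with 10 promoters, and Trp63 and Zmat3 had no entry. p53 binds as a tetramer to a pair of decamers, and both strands were searched for the standard p53 consensus decamer without mismatch. A matching decamer lay in 7 of the 10 member promoters, against 8.36% of all 32851 promoters of the same length. A pair of decamers at most 1 base apart with at most 2 mismatches lay in 2 of the 10, against 0.32% of all promoters. The Cdkn1a pair was at chr17:29090928-29090947 on the plus strand, 51 bases before the more upstream start of that gene, with 1 mismatch. A further Cdkn1a promoter downstream (chr17:29093519-29093818) held no match, and neither did a Sesn1 promoter at chr10:41810324-41810623. The Bax pair was at chr7:45467079-45467099 on the minus strand, 201 bases before the start, with 2 mismatches. The windows are printed 5′ to 3′ along the gene's strand, with 10 bases on each side, and capitals mark the whole span of a decamer or pair, any base between decamers and any mismatched base included.

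Cdkn1a pair: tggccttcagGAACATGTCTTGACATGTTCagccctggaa
Bax pair: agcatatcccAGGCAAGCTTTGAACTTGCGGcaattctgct
Cdkn1a further decamer: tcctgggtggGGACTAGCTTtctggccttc
Mdm2 decamer: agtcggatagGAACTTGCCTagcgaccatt
Ccng1 decamer: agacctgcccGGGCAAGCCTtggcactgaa
Trp53 decamer: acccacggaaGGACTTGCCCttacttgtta
Sesn1 decamer: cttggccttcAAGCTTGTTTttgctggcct
Gadd45a decamer: ggttggctgaGGGCTAGCCCcatatctccg

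Cdkn1a and Phlda3, with opposite differences in aged against young libraries, are shown with a whole promoter each. The Cdkn1a promoter shown is the more upstream and spans chr17:29090729-29091028 (plus strand), and its capitals mark the further decamer and the pair. The Phlda3 promoter spans chr1:135765835-135766134 (plus strand) and holds no match, which says only that these letters are not in this window.

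Cdkn1a promoter: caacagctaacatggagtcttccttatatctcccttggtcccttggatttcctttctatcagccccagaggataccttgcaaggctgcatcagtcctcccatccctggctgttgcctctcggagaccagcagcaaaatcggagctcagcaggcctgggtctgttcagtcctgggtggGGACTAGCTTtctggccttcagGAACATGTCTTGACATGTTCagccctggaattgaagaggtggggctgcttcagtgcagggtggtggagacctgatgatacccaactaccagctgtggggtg
Phlda3 promoter: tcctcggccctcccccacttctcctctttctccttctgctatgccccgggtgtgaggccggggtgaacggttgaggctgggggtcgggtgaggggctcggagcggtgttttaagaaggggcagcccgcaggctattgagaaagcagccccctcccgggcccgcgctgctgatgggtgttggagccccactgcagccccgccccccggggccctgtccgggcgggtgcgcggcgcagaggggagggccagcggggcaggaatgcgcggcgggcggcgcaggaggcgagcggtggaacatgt

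Library totals lay between 21718961 and 27437969 expected counts. The 14 muscle fibre markers summed to 152306 to 181361 CPM (counts scaled to a common library total) in aged GW8510, 148242 to 184374 CPM in aged vehicle and 171662 to 214420 CPM in young vehicle libraries, and none was at 0. Aged vehicle library 4 stood apart: it was at -41.1 on the second principal component, against -12.7 to 18.3 for the other 8 libraries. Its mean correlation with its group was 0.942, against 0.956 to 0.971 for the others. It carried the highest value of 5 of the 10 members (Trp53, Trp63, Mdm2, Gadd45a and Phlda3) and the lowest of Ccng1. For Trp53 (19.1 against at most 18.7 CPM elsewhere) and Mdm2 (57.0 against at most 54.4 CPM) the margin was small. The share of all genes highest in this library is not given here. Results that rest on it are given with and without it. In it, 12 of the 14 genes of a list of glucocorticoid and FOXO induced muscle genes were at their highest. That list summed to 4320 CPM there, against 1060 to 1427 CPM in the other 8 libraries. Fbxo32, a ubiquitin ligase of wasting muscle, had 1537 CPM there, against 213 to 340 CPM elsewhere. Of these 14 genes the main edgeR fit and limma-voom called 0 in each comparison. At an unadjusted p under 0.05 there were 5, 4 and 2 in aged over young vehicle, GW8510 over aged vehicle and GW8510 over young vehicle. The shares of all genes tested at that p were 19.2%, 4.49% and 16.7%. DESeq2 called 3, 0 and 0 in that order, against 6.75%, 0.0763% and 6.03% of all genes. With no filter on low counts edgeR called Klf15, Mt1 and Mt2 of this list higher in aged over young vehicle, among 2.72% of all genes. The part of these 14 genes in the members' values was not tested.

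Per gene length, Ccng1 was the most and Zmat3 the least abundant member in every group. On the authors' TPM scale (which also divides by gene length), Ccng1 averaged 246 ± 48.7 TPM in aged GW8510, 274 ± 67.4 TPM in aged vehicle and 313 ± 21.7 TPM in young vehicle libraries (SD, n = 3 each). Zmat3 averaged 0.827 ± 0.341, 1.03 ± 0.133 and 1.61 ± 0.232 TPM in the same order of groups, and its libraries did not overlap with those of the next gene, Trp63, in any group. In aged GW8510 libraries the order from the top was Ccng1, Phlda3, Gadd45a, Mdm2, Bax, Trp53, Sesn1, Cdkn1a, Trp63 and Zmat3. Libraries overlapped there between Mdm2 and Bax, Trp53 and Sesn1, and Sesn1 and Cdkn1a. In aged vehicle libraries the order was Ccng1, Gadd45a, Phlda3, Mdm2, Cdkn1a, Bax, Trp53, Sesn1, Trp63 and Zmat3, and only Phlda3 against Mdm2 and Trp63 against Zmat3 were neighbours without overlap. By the mean of aged vehicle libraries 1 and 3 alone, Gadd45a (23.3 TPM) followed Phlda3 (47.7 TPM), and Cdkn1a (11.3 TPM) followed Bax (15.1 TPM). In young vehicle libraries the order was Ccng1, Gadd45a, Cdkn1a, Mdm2, Phlda3, Bax, Trp53, Sesn1, Trp63 and Zmat3. Neighbours without overlap there were Ccng1 and Gadd45a, Bax and Trp53, Sesn1 and Trp63, and Trp63 and Zmat3. Cdkn1a was thus at rank 8 by mean TPM in aged GW8510 and at rank 3 in young vehicle libraries, and Phlda3 at rank 2 in aged GW8510 and at rank 5 in young vehicle libraries.

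**Figure D1:**
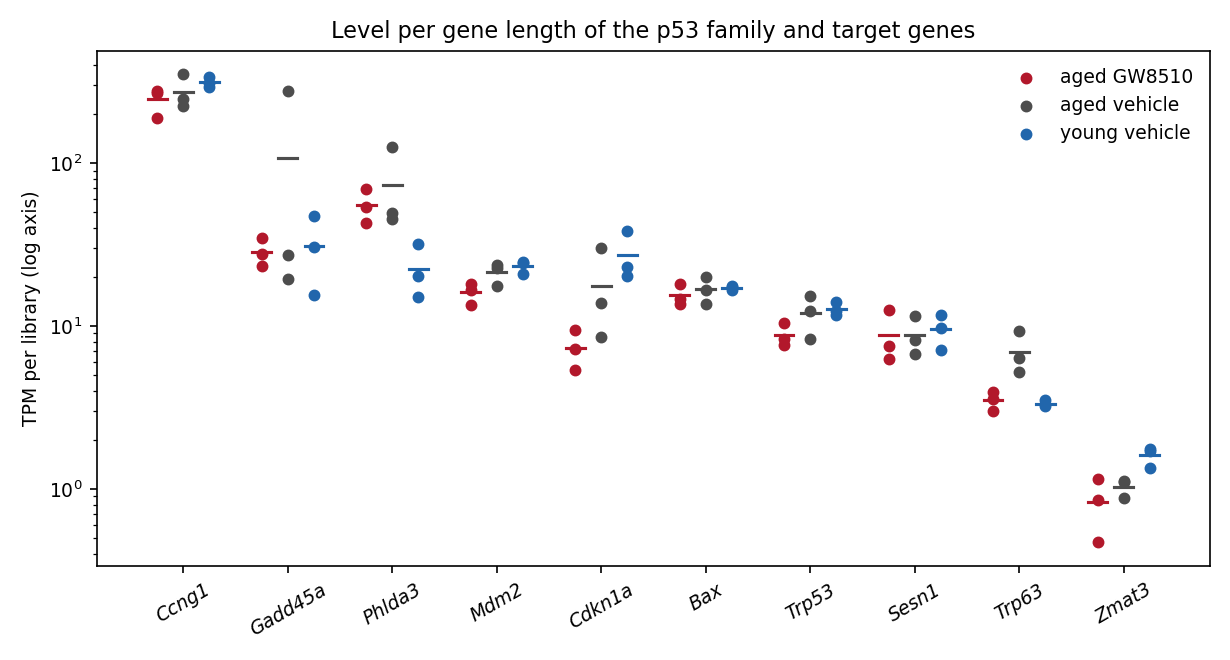
TPM of each gene on a log axis, 1 point per library and a bar for the mean of 3 libraries, with aged GW8510 left, aged vehicle in the middle and young vehicle right. Ccng1 lies at the top (means 246 to 313 TPM) and Zmat3 at the bottom (means 0.827 to 1.61 TPM).

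Between aged and young vehicle muscle, 1 of the 10 members passed the test: Trp63 was 2.18-fold higher in aged libraries. Phlda3 was 3.42-fold higher and just missed the threshold, while Trp53 itself and Mdm2, Ccng1, Sesn1 and Bax had log2 fold changes between -0.12 and 0.06. Tests used edgeR's quasi-likelihood model with Benjamini-Hochberg adjustment over all genes tested and a threshold of 0.05, and called 1.21% of all genes tested (175 of 14414). DESeq2 called 2 members, Trp63 and Phlda3, and 6.75% of all genes, and limma-voom called Trp63 and 1.08%. The libraries of the groups did not overlap for 3 members, with Trp63 and Phlda3 higher and Zmat3 lower in aged vehicle libraries, against 26.2% of all genes tested without overlap. The median log2 fold change of the members was 0.01, as over all genes tested (0.01). At an unadjusted p under 0.05 there were 2 members, against 19.2% of all genes. The count of called members was 2 with no filter on low counts (2.72% of all genes called), 0 when the fit held only the 6 libraries compared (0.354% called) and 1 without aged vehicle library 4 (0.963% called), and it ranged between 0 and 1 when each library was left out in turn.

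Between GW8510 and vehicle in aged muscle, no member passed by edgeR, as no gene did (0.0% of 14414 called). Trp63 and Cdkn1a had the largest differences relative to their error, and both were lower in aged GW8510 libraries. At an unadjusted p under 0.05 there were 2 members, Trp63 and Cdkn1a, against 4.49% of all genes tested. DESeq2 called 1 member, Trp63, as lower, and 0.0763% of all genes (11), and limma-voom called no member and no gene. Trp63 was the only member whose libraries did not overlap, against 7.23% of all genes tested. The log2 fold changes of 8 of the 10 members were below 0, with a median of -0.22, against 0.01 over all genes tested. The share of all genes below 0 is not given here. With no filter 0.0194% of all genes and 0 members were called. When aged vehicle library 4 was left out, Gadd45a and Phlda3 lay above 0, as Sesn1 and Bax did with and without it. The median of the members was then -0.19, against 0.0075 over all genes tested.

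Between aged GW8510 and young vehicle muscle, no member passed by edgeR, which called 0.749% of all genes tested. Cdkn1a was 3.13-fold lower and Phlda3 2.99-fold higher in aged GW8510 libraries, and each missed the threshold by little. At an unadjusted p under 0.05 there were 4 members, Cdkn1a, Phlda3, Zmat3 and Trp53, against 16.7% of all genes. DESeq2 called Cdkn1a and Phlda3 and 6.03% of all genes, and limma-voom called no member and 0.728% of all genes. The libraries did not overlap for 4 members, with Phlda3 higher and Cdkn1a, Trp53 and Mdm2 lower in aged GW8510 libraries, against 25.7% of all genes. The fit of only the 6 libraries compared called Cdkn1a (adjusted p = 0.0113 by edgeR) and Phlda3 (adjusted p = 0.0190 by edgeR) among 3.35% of all genes. Both were also called without aged vehicle library 4 (4% of all genes) and with no filter (2.15% of all genes). This comparison shares its groups with the others, so its values are set beside theirs and are not a further observation.

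**Figure D2:**
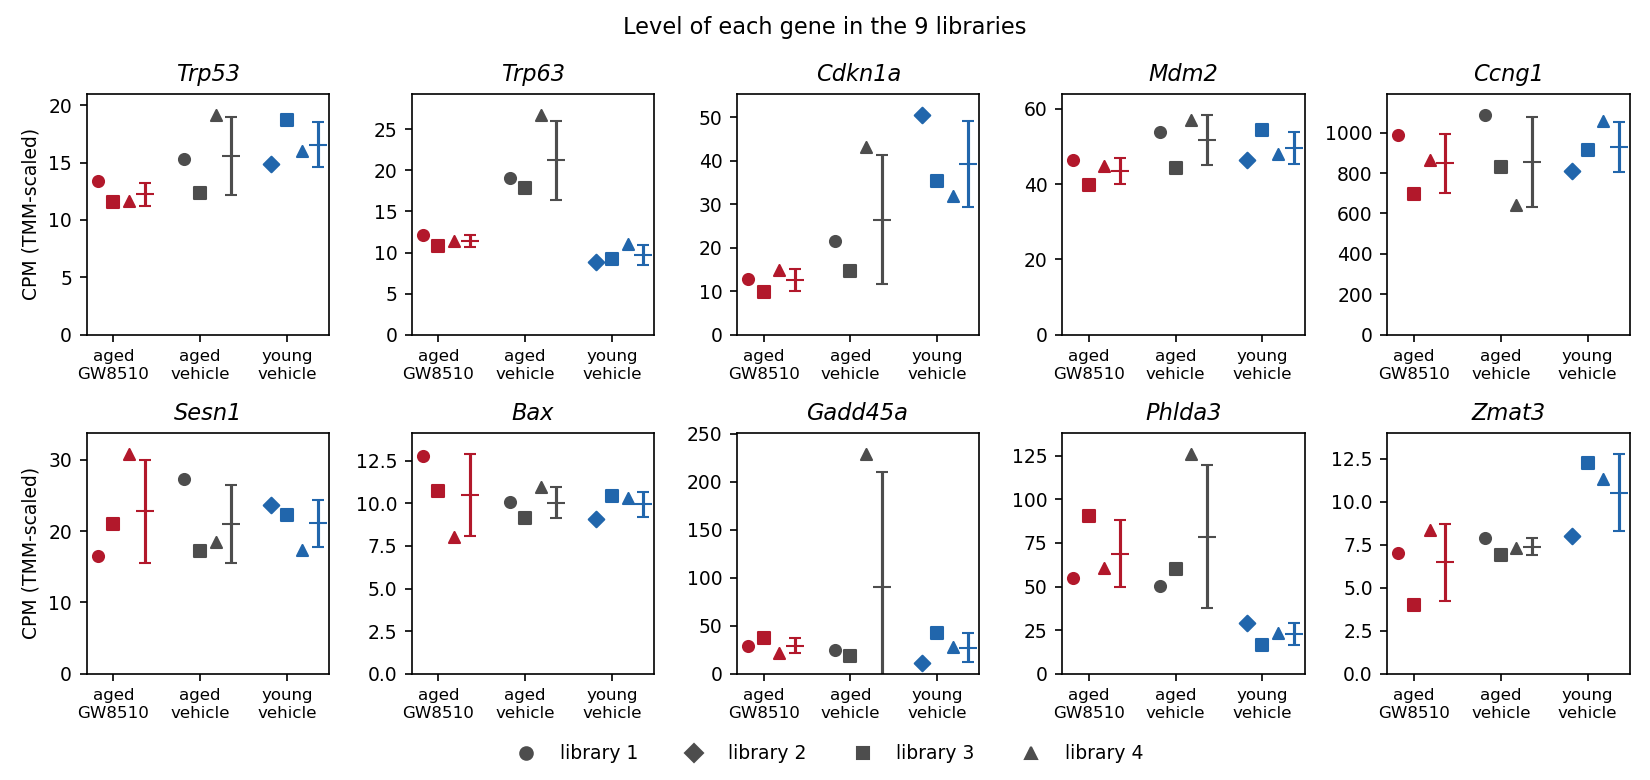
CPM of the 10 genes by library, with aged GW8510 left, aged vehicle in the middle and young vehicle right in each panel. Markers give the library number, and the bar beside them is the mean ± SD of 3 libraries, cut at 0 for Gadd45a in aged vehicle libraries, where library 4 lies at 229 CPM.

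**Figure D3:**
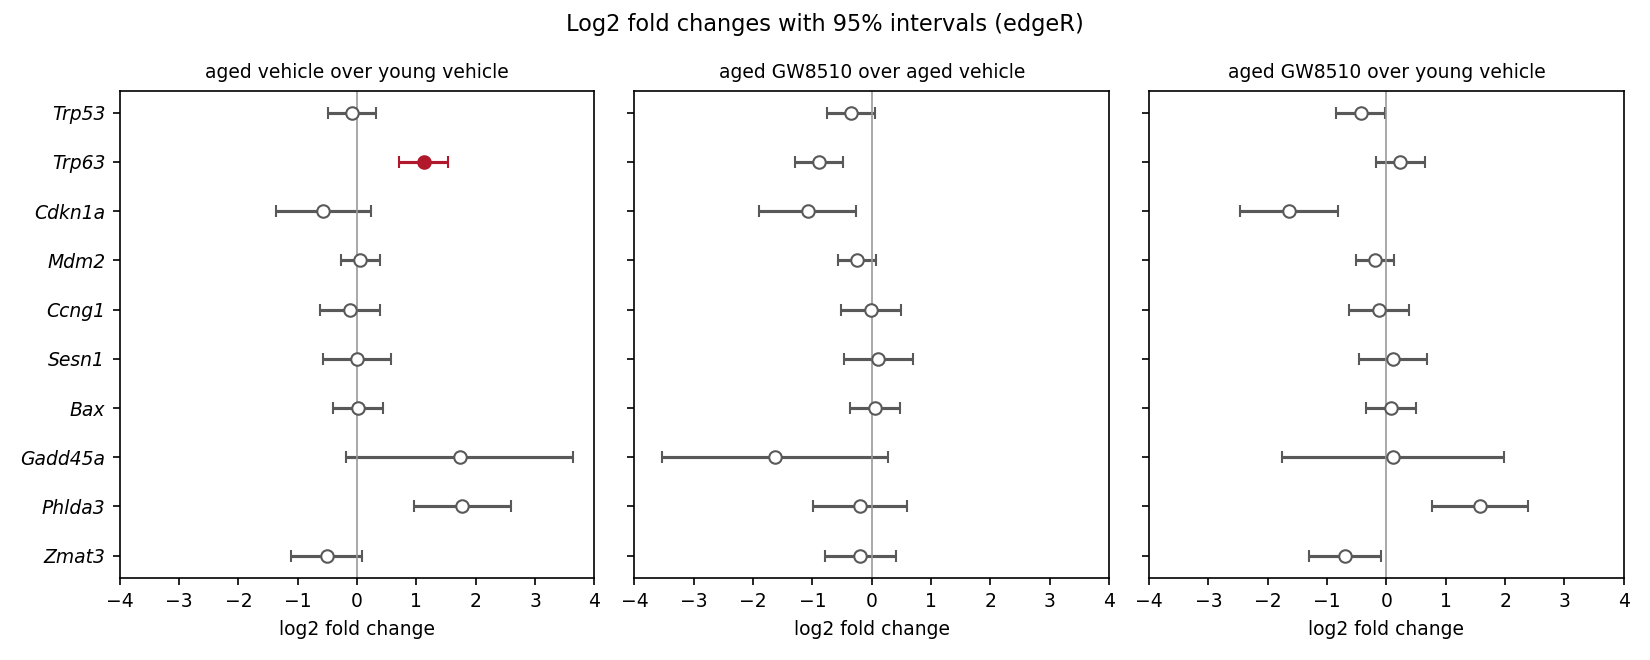
Log2 fold changes of the 10 genes with 95% intervals in the 3 comparisons, by edgeR with all 9 libraries in the fit. The filled point is the value past the threshold, Trp63 in aged vehicle over young vehicle (1.12), and open points did not pass.

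Trp53 (ENSMUSG00000059552, chr11:69580359-69591873, plus strand, GRCm38, protein coding, as are all members) encodes p53 itself. Its level was 13.4, 11.6 and 11.7 CPM in aged GW8510 libraries 1, 3 and 4, against 15.3, 12.3 and 19.1 CPM in aged vehicle libraries 1, 3 and 4 and 14.9, 18.7 and 16.0 CPM in young vehicle libraries 2, 3 and 4. All 3 GW8510 libraries lay below all young libraries, while the aged vehicle libraries overlapped with both. The log2 fold change was -0.09 ± 0.18 (SE, 95% interval -0.49 to 0.32, adjusted p = 0.824 by edgeR) in aged over young vehicle. GW8510 over aged vehicle gave -0.35 (interval -0.76 to 0.06, unadjusted p = 0.0863), and GW8510 over young vehicle gave -0.44 (interval -0.85 to -0.03, adjusted p = 0.268 by edgeR). p53 is regulated mainly through the stability of its protein, which these libraries do not measure. The processed pseudogene Trp53-ps had 0 counts in all libraries.

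Trp63 (ENSMUSG00000022510, chr16:25683763-25892102, plus strand) encodes p63, a factor best known from stratified epithelia. It had 12.2, 10.8 and 11.4 CPM in aged GW8510 libraries 1, 3 and 4, against 19.1, 17.9 and 26.7 CPM in aged vehicle libraries 1, 3 and 4 and 8.86, 9.22 and 11.1 CPM in young vehicle libraries 2, 3 and 4. Every aged vehicle library lay above every GW8510 and every young library, and the GW8510 and young libraries overlapped. Trp63 rose in aged over young vehicle libraries by 1.12 ± 0.18 on the log2 scale (SE, interval 0.71 to 1.53, adjusted p = 0.0308 by edgeR), higher in 3 of 3 libraries. Its rank by p was 55 of 14414. Leaving out aged vehicle library 4 gave 0.93 (adjusted p = 0.0330 by edgeR). It did not pass without aged GW8510 library 3 (adjusted p = 0.0544), aged vehicle library 1 (0.0669), young vehicle library 2 (0.0952), young vehicle library 3 (0.118) or young vehicle library 4 (0.0713), all by edgeR. In bulk muscle, a change in the number of cells of a type and a change in RNA per cell cannot be told apart.

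In GW8510 over aged vehicle, Trp63 had a log2 fold change of -0.89 ± 0.18 (SE, interval -1.30 to -0.48) with an unadjusted p of 0.000673, which ranked 6 of 14414, and an adjusted p of 0.935 by edgeR. DESeq2 gave -0.90 with an adjusted p of 0.0410. Its edgeR value without aged vehicle library 4 was -0.70 (unadjusted p = 0.00122). GW8510 over young vehicle gave 0.23 (interval -0.18 to 0.64, adjusted p = 0.555 by edgeR). Krt5, Krt14 and Krt15, keratins of the basal epidermis where p63 is abundant, were at 0 in all 9 libraries. All 13 skin and epithelial markers summed to 6.11 to 8.76 CPM in aged GW8510, 6.4 to 16.2 CPM in aged vehicle and 4.37 to 8.67 CPM in young vehicle libraries, and none of the 5 tested was called by edgeR or limma-voom. Of these 5, 1 had an unadjusted p under 0.05 in aged over young vehicle, against 19.2% of all genes tested. It was Krt18, which DESeq2 called higher and which reached 8.71 CPM in aged vehicle library 4. With no filter edgeR called Krt18 and Krt8 higher in that comparison, among 2.72% of all genes. In GW8510 over aged vehicle Krt18 was again the only one of the 5 with an unadjusted p under 0.05 (-2.09, unadjusted p = 0.0321 by edgeR). That share over all genes tested was 4.49%. Krt18 had the sign of Trp63, while the other 4 tested markers lay above 0, with a median of 0.17 for the 5. The part of these markers in the Trp63 values was not tested.

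Mdm2 (ENSMUSG00000020184, chr10:117688875-117710758, minus strand), the p53-induced inhibitor of p53, differed 1.44-fold between its highest and lowest library, the smallest such ratio of the 10 members. It had 46.3, 39.7 and 44.7 CPM in aged GW8510 libraries 1, 3 and 4, against 53.8, 44.3 and 57.0 CPM in aged vehicle libraries 1, 3 and 4 and 46.5, 54.4 and 48.1 CPM in young vehicle libraries 2, 3 and 4. The GW8510 libraries all lay below the young ones, by a small margin. Its log2 fold change was 0.06 (interval -0.27 to 0.38) in aged over young vehicle, -0.25 (interval -0.57 to 0.08) in GW8510 over aged vehicle and -0.19 (interval -0.51 to 0.14) in GW8510 over young vehicle. Over the 9 libraries, log2 CPM of Mdm2 and Trp53 correlated with r = 0.91, a description over libraries that share age, treatment and library 4.

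Cdkn1a (ENSMUSG00000023067, chr17:29090976-29100727, plus strand) encodes the cyclin-dependent kinase inhibitor p21 and was highest in young muscle. It had 12.9, 9.78 and 14.9 CPM in aged GW8510 libraries 1, 3 and 4, against 21.7, 14.6 and 43.3 CPM in aged vehicle libraries 1, 3 and 4 and 50.5, 35.4 and 31.9 CPM in young vehicle libraries 2, 3 and 4. The GW8510 libraries were all below the young ones. The aged vehicle group was split, with library 4 within the young range and library 3 within the GW8510 range. GW8510 over young vehicle gave a log2 fold change of -1.65 ± 0.37 (SE, interval -2.47 to -0.83, adjusted p = 0.0702 by edgeR), with an adjusted p of 0.000735 by DESeq2 and 0.0713 by limma-voom. It passed by edgeR without aged vehicle library 3 (adjusted p = 0.0422, 0.927% of all genes called) and without aged vehicle library 4 (adjusted p = 0.00904), and in none of the other 7 fits with a library left out.

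In aged over young vehicle, Cdkn1a gave -0.57 ± 0.36 (SE, interval -1.37 to 0.23, adjusted p = 0.404 by edgeR), and without aged vehicle library 4 it gave -1.11 (adjusted p = 0.0954 by edgeR). In GW8510 over aged vehicle it gave -1.08 ± 0.36 (SE, interval -1.89 to -0.27, unadjusted p = 0.0145, adjusted p = 0.935 by edgeR), and without that library -0.55 (unadjusted p = 0.0642). The size of both differences therefore moved with 1 library. An antisense gene, AC167363.2, shares 273 exonic bases with Cdkn1a and was listed at no more than 0.43 TPM, and whether counting used strand is not stated. The summed level of the 10 fibroblast markers was also highest in young libraries. It was 315 to 664 CPM in aged GW8510, 146 to 597 CPM in aged vehicle and 1281 to 2754 CPM in young vehicle libraries. Taken singly, 6 of the 10 had no overlap in aged over young vehicle, against 26.2% of all genes. In GW8510 over young vehicle 4 had none, against 25.7% of all genes. Ly6a was highest in aged GW8510 library 3 (70.2 CPM). The part of the fibroblast markers in the Cdkn1a difference was not tested.

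Ccng1 (ENSMUSG00000020326, chr11:40748552-40755311, minus strand), which encodes cyclin G1, was the most abundant member and did not pass in any comparison. Its level was 986, 694 and 862 CPM in aged GW8510 libraries 1, 3 and 4, against 1085, 831 and 641 CPM in aged vehicle libraries 1, 3 and 4 and 812, 913 and 1057 CPM in young vehicle libraries 2, 3 and 4. The 3 groups overlapped throughout. The log2 fold changes were -0.12 (interval -0.63 to 0.38) in aged over young vehicle, -0.01 (interval -0.51 to 0.50) in GW8510 over aged vehicle and -0.13 (interval -0.63 to 0.38) in GW8510 over young vehicle.

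Gadd45a (ENSMUSG00000036390, chr6:67035096-67037457, minus strand), a stress protein of cell cycle arrest and DNA repair, had 1 library far above the rest. It had 29.0, 37.2 and 21.9 CPM in aged GW8510 libraries 1, 3 and 4, against 25, 18.8 and 229 CPM in aged vehicle libraries 1, 3 and 4 and 11.3, 42.4 and 28.4 CPM in young vehicle libraries 2, 3 and 4. Aged vehicle library 4 held 10.5 times the mean of the other 2 aged vehicle libraries, and the other 8 libraries overlapped. Its log2 fold change of 1.73 ± 0.86 in aged over young vehicle (SE, interval -0.18 to 3.64, adjusted p = 0.301 by edgeR) was -0.32 without that library. GW8510 over aged vehicle gave -1.63 ± 0.85 (SE, interval -3.53 to 0.28, unadjusted p = 0.0862), and 0.41 without it. GW8510 over young vehicle gave 0.10 (interval -1.76 to 1.97). The antisense gene E230016M11Rik shares 337 exonic bases with Gadd45a and was listed at no more than 0.69 TPM.

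Some markers of denervated muscle were high in aged vehicle library 4, as Gadd45a was. Of a list of 11 denervation induced genes, 5 were at their highest there and 0 at their lowest. Others peaked elsewhere: Myh3 had 0.476 CPM there, against 13.2 CPM in aged vehicle library 3. Dach2 had 0.866 CPM there, against 4.91 CPM in aged GW8510 library 3. Myog, a muscle transcription factor that rises after denervation, had 54.8 CPM in aged vehicle library 4, against 4.16 to 19.0 CPM in the other 8 libraries. Runx1, another such factor, had 14.2 CPM there, against 1.68 to 4.36 CPM. The list of 11 denervation induced genes had none called by the main edgeR fit in any comparison. At an unadjusted p under 0.05 there were 6, 6 and 2 in aged over young vehicle, GW8510 over aged vehicle and GW8510 over young vehicle. The shares of all genes tested at that p were 19.2%, 4.49% and 16.7%. DESeq2 called 3, 0 and 1 of the 11 in the same order, against 6.75%, 0.0763% and 6.03% of all genes. Without aged vehicle library 4 edgeR called Dach2 higher in GW8510 over young vehicle, among 4% of all genes. With no filter edgeR called Ankrd1 and Runx1 higher and Myh8 lower in aged over young vehicle, among 2.72% of all genes. In GW8510 over young vehicle it then called Dach2 higher and Myh8 lower, among 2.15% of all genes. The part of these 11 genes in the Gadd45a values was not tested.

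Sesn1 (ENSMUSG00000038332, chr10:41809935-41908424, plus strand), a sestrin that restrains the growth kinase complex mTORC1, had log2 fold changes near 0. It had 16.6, 21 and 30.8 CPM in aged GW8510 libraries 1, 3 and 4, against 27.4, 17.3 and 18.5 CPM in aged vehicle libraries 1, 3 and 4 and 23.6, 22.3 and 17.3 CPM in young vehicle libraries 2, 3 and 4. The groups overlapped in all 3 comparisons. Its log2 fold change was -0.0017 (95% interval -0.58 to 0.57) in aged over young vehicle and 0.11 (interval -0.46 to 0.69) in each GW8510 comparison.

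Phlda3 (ENSMUSG00000041801, chr1:135766119-135769136, plus strand), which encodes a small protein that blocks the kinase Akt at the membrane, was higher in both aged groups than in young muscle. It had 54.9, 90.6 and 60.8 CPM in aged GW8510 libraries 1, 3 and 4, against 50.2, 60.1 and 126 CPM in aged vehicle libraries 1, 3 and 4 and 29.2, 16.6 and 23.1 CPM in young vehicle libraries 2, 3 and 4. All 6 aged libraries lay above all 3 young ones, and the aged groups overlapped. Aged over young vehicle gave a log2 fold change of 1.78 ± 0.36 (SE, interval 0.96 to 2.59, adjusted p = 0.0539 by edgeR), higher in 3 of 3 libraries. The adjusted p was 9.87e-05 by DESeq2 and 0.0534 by limma-voom. Without aged vehicle library 4 the value was 1.26 (adjusted p = 0.0602 by edgeR), and it passed in 0 of the 9 fits with a library left out.

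GW8510 over young vehicle gave 1.58 ± 0.36 for Phlda3 (SE, interval 0.77 to 2.39, adjusted p = 0.0726 by edgeR, 0.000966 by DESeq2 and 0.0646 by limma-voom). Without aged vehicle library 4 it passed (adjusted p = 0.0109 by edgeR). GW8510 over aged vehicle gave -0.19 (interval -0.98 to 0.59), and 0.31 without library 4. In the authors' deposited table, Phlda3 was marked in aged over young vehicle (log2 ratio 1.79) together with Trp63 (1.14), among 2.65% of all genes. The authors' deposited table of GW8510 over young vehicle marked Phlda3 (1.59) and Cdkn1a (-1.64), among 3% of all genes, and that of GW8510 over aged vehicle marked no member, among 0.0246%.

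Bax (ENSMUSG00000003873, chr7:45461697-45466898, minus strand), the pore-forming apoptosis protein, had 12.8, 10.7 and 8.01 CPM in aged GW8510 libraries 1, 3 and 4, against 10.1, 9.12 and 11 CPM in aged vehicle libraries 1, 3 and 4 and 9.10, 10.4 and 10.3 CPM in young vehicle libraries 2, 3 and 4. The groups overlapped in every comparison. Its log2 fold change was 0.02 (interval -0.41 to 0.44) in aged over young vehicle, 0.06 (interval -0.36 to 0.48) in GW8510 over aged vehicle and 0.08 (interval -0.34 to 0.50) in GW8510 over young vehicle. Gm45808 on the same strand shares 192 exonic bases with Bax and was listed at no more than 1.19 TPM.

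Zmat3 (ENSMUSG00000027663, chr3:32334792-32366014, minus strand), an RNA-binding zinc finger protein, was the least abundant member per length. It had 7.04, 3.98 and 8.37 CPM in aged GW8510 libraries 1, 3 and 4, against 7.89, 6.91 and 7.32 CPM in aged vehicle libraries 1, 3 and 4 and 8.0, 12.2 and 11.3 CPM in young vehicle libraries 2, 3 and 4. The aged vehicle libraries all lay below the young ones, but young library 2 was close to them. The log2 fold change was -0.51 (interval -1.11 to 0.09, unadjusted p = 0.0877) in aged over young vehicle and -0.70 (interval -1.31 to -0.10, unadjusted p = 0.0274, adjusted p = 0.232 by edgeR) in GW8510 over young vehicle. GW8510 over aged vehicle gave -0.19 (interval -0.80 to 0.42).

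**Figure D4:**
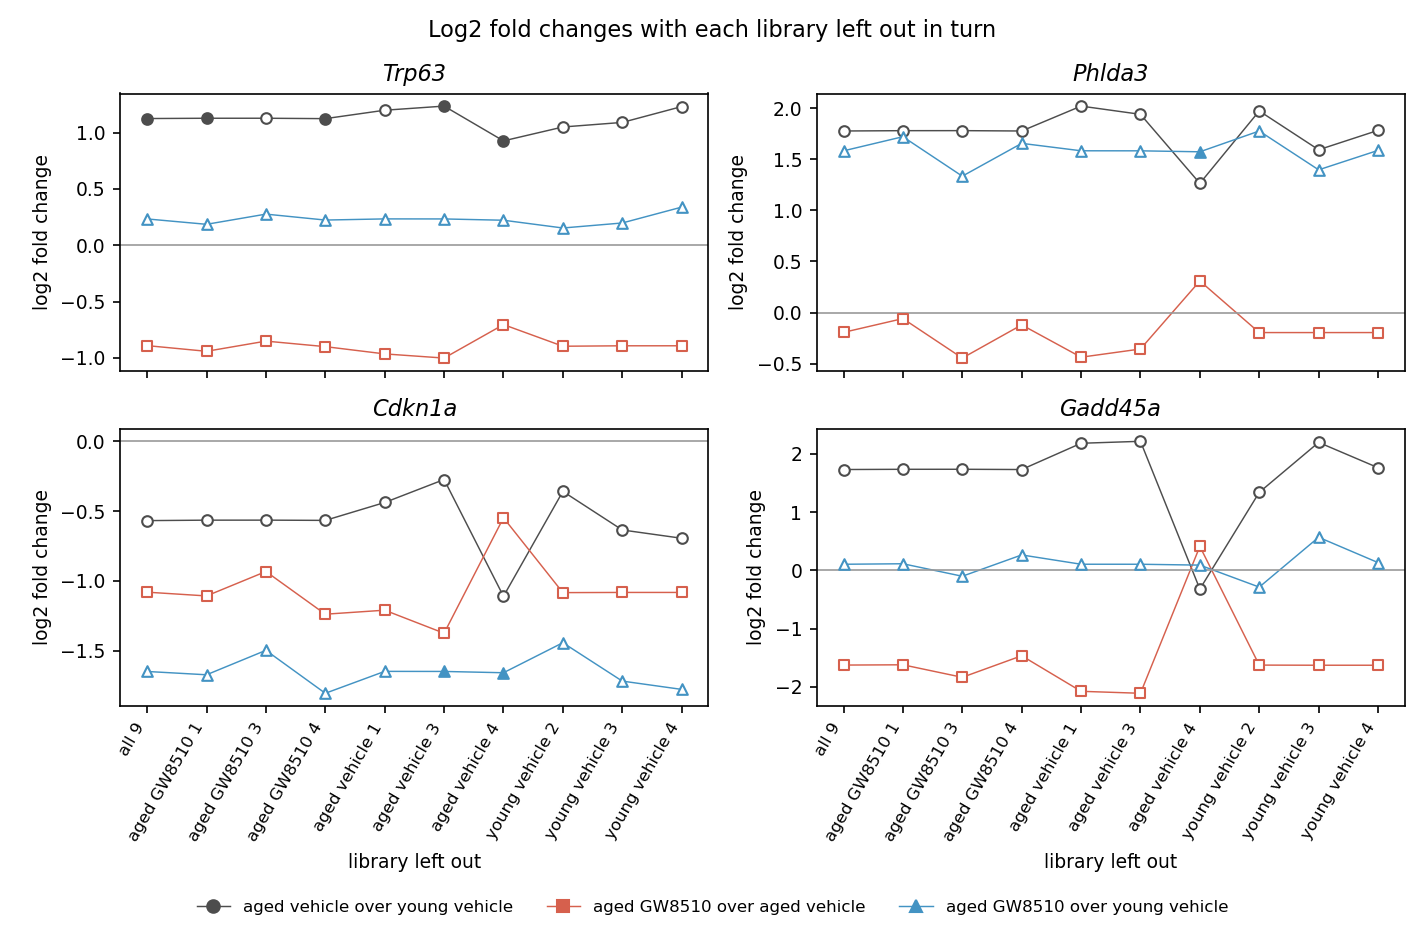
Log2 fold changes of Trp63, Phlda3, Cdkn1a and Gadd45a with all 9 libraries and with each library left out in turn, for the 3 comparisons. Filled points passed the threshold, and Gadd45a crosses 0 without aged vehicle library 4 (1.73 becomes -0.32 in aged over young vehicle and -1.63 becomes 0.41 in GW8510 over aged vehicle).

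Of 32 other known p53 targets, 28 were tested. In aged over young vehicle edgeR called 1 as higher, against 1.21% of all genes tested: Eda2r, a receptor for the ectodysplasin A2 ligand. It had 13.5, 18.0 and 22.4 CPM in aged GW8510 libraries 1, 3 and 4, against 34.8, 22.2 and 118 CPM in aged vehicle libraries 1, 3 and 4 and 8.41, 4.91 and 7.37 CPM in young vehicle libraries 2, 3 and 4. Both aged groups lay above the young group, with aged vehicle library 4 far above the rest. The log2 fold change in aged over young vehicle was 3.08 ± 0.57 (SE, adjusted p = 0.0383 by edgeR), and 2.05 without that library (adjusted p = 0.0200 by edgeR). GW8510 over aged vehicle gave -1.70 (unadjusted p = 0.0101, adjusted p = 0.935 by edgeR), and -0.68 without that library, and GW8510 over young vehicle gave 1.38 (adjusted p = 0.237 by edgeR). Without aged vehicle library 4, Eda2r passed in GW8510 over young vehicle (1.37, adjusted p = 0.0286 by edgeR). The median log2 fold change of the 28 tested targets was 0.15 in aged over young vehicle, 0.00 in GW8510 over aged vehicle and 0.03 in GW8510 over young vehicle, against 0.01 over all genes tested in each.

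The values of these targets lay on both sides of 0. In aged over young vehicle 18 of the 28 lay above 0 and 10 below. At an unadjusted p under 0.05 there were 2 above and 3 below, against 19.2% of all genes in either direction. DESeq2 called 5 (Eda2r and Dcxr higher, Btg2, Plk3 and Tnfrsf10b lower), against 6.75% of all genes, and limma-voom none. Btg2, an antiproliferative protein, had a log2 fold change of -1.27 in aged over young vehicle (adjusted p = 0.0729 by edgeR) and -1.18 in GW8510 over young vehicle (adjusted p = 0.0888 by edgeR). Without aged vehicle library 4 these were -1.76 (adjusted p = 0.00390) and -1.19 (adjusted p = 0.00538), both by edgeR. With no filter edgeR called Btg2 and Plk3 lower in these comparisons, among 2.72% and 2.15% of all genes. In GW8510 over young vehicle 0 were called by the main edgeR fit and limma-voom, and 7 had an unadjusted p under 0.05, against 16.7% of all genes. DESeq2 called Btg2 and Plk3 lower and Dcxr higher there, against 6.03% of all genes. In GW8510 over aged vehicle 0 were called by edgeR, DESeq2 and limma-voom. There 3 had an unadjusted p under 0.05, against 4.49% of all genes, led by Eda2r and Trp53inp1 (-0.61, unadjusted p = 0.0247 by edgeR).

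**Figure D5:**
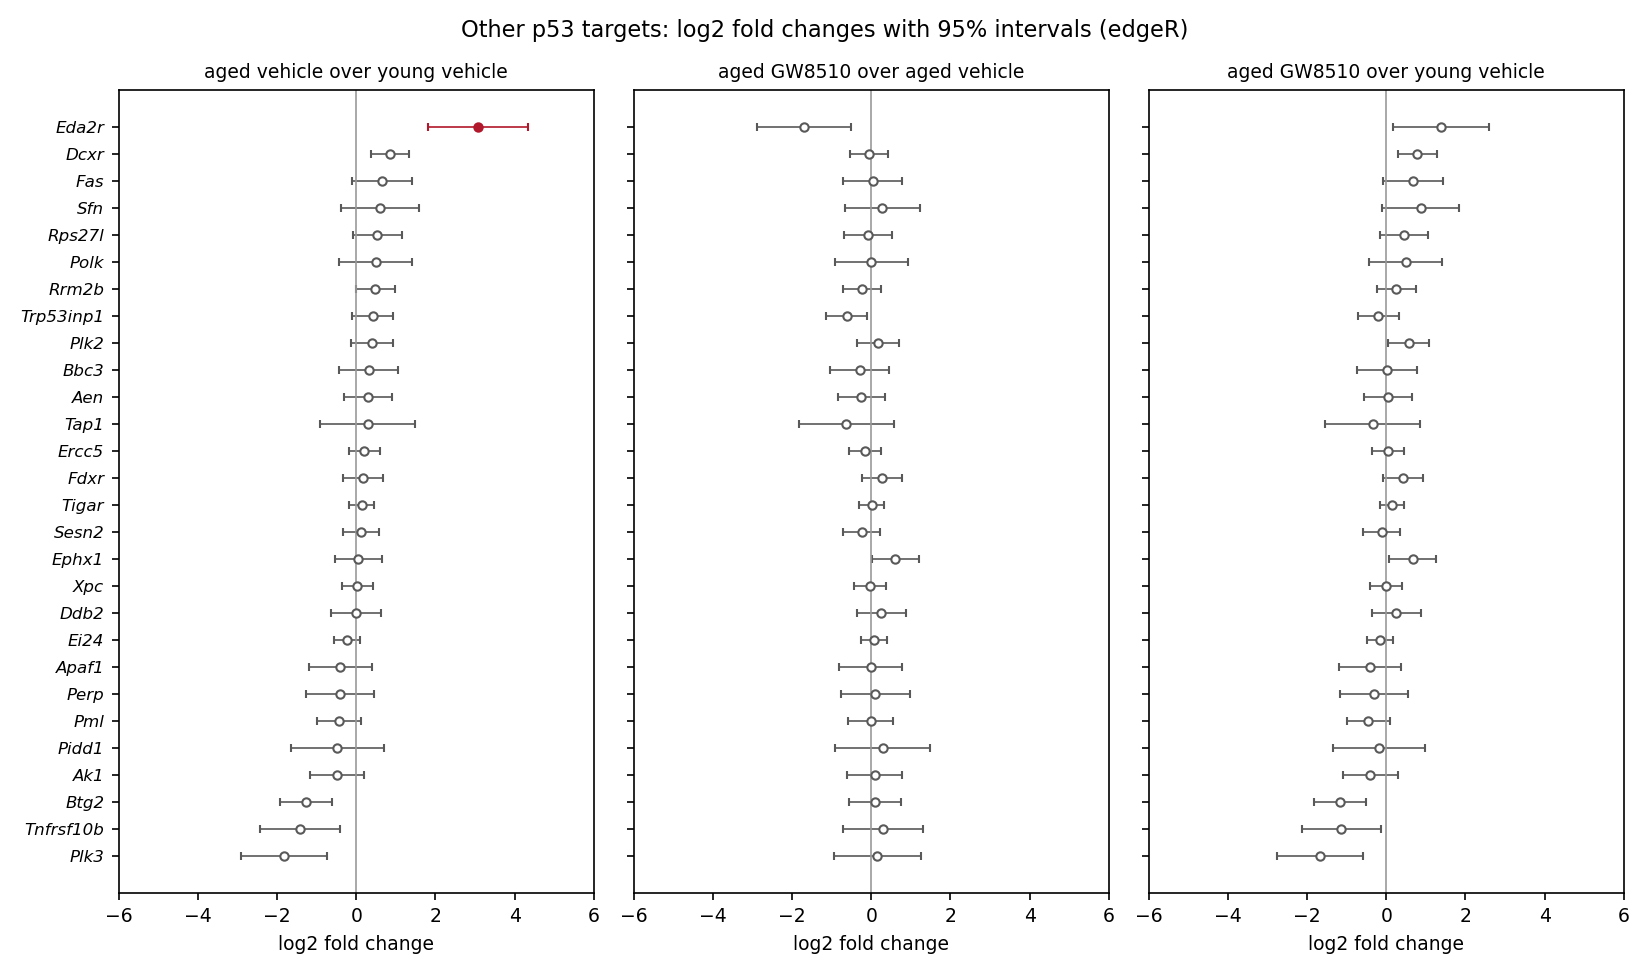
Log2 fold changes with 95% intervals of the 28 tested other p53 targets in the 3 comparisons, by edgeR. The filled point is Eda2r in aged vehicle over young vehicle (3.08), the value past the threshold, and the genes are ordered by that comparison.

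Among regulators and cofactors of p53, 18 of 20 listed genes were tested and the main edgeR fit called 0 in each comparison. At an unadjusted p under 0.05 there were 3 in aged over young vehicle, 1 in GW8510 over aged vehicle and 2 in GW8510 over young vehicle. The shares of all genes tested at that p were 19.2%, 4.49% and 16.7%. Limma-voom called 0, and DESeq2 called 2, 0 and 1 in the same order, against 6.75%, 0.0763% and 6.03% of all genes. Cdkn2a, whose locus encodes p16 and the Mdm2 inhibitor Arf, had 0.445 to 0.863 CPM in aged GW8510 and 0.346 to 1.35 CPM in aged vehicle libraries. Young libraries had 0 to 0.205 CPM, close to the floor of 3 counts, which is 0.103 to 0.136 CPM (counting error only). The log2 fold change of 3.26 in aged over young vehicle (adjusted p = 0.0970 by edgeR) therefore depends on the prior count. DESeq2 called Cdkn2a higher in both comparisons with young libraries, and the authors' deposited table marked it in aged over young vehicle only. Without aged vehicle library 4 edgeR called 0 of this list in each comparison. With no filter edgeR called Cdkn2a higher in aged over young vehicle, among 2.72% of all genes. Trp53bp2, a p53-binding protein, gave 0.51 in aged over young vehicle (adjusted p = 0.107 by edgeR). The relative of Mdm2 that also restrains p53, Mdm4, gave 0.05 in aged over young vehicle and 0.09 in GW8510 over aged vehicle.

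Of 13 paralogs of the members listed, 11 were tested and the main edgeR fit called 0 in each comparison. At an unadjusted p under 0.05 there were 2, 0 and 2 in aged over young vehicle, GW8510 over aged vehicle and GW8510 over young vehicle. The shares of all genes tested at that p were 19.2%, 4.49% and 16.7%. DESeq2 called 2, 0 and 1 in that order, against 6.75%, 0.0763% and 6.03% of all genes, and limma-voom 0. Gadd45g, a relative of Gadd45a, had 35.0, 38.0 and 45.8 CPM in aged GW8510 libraries 1, 3 and 4, against 34.3, 68.6 and 28 CPM in aged vehicle libraries 1, 3 and 4 and 128, 143 and 84.9 CPM in young vehicle libraries 2, 3 and 4. All aged libraries lay below all young ones, with a log2 fold change of -1.58 in GW8510 over young vehicle (adjusted p = 0.0618 by edgeR) and -1.44 in aged over young vehicle (adjusted p = 0.0700 by edgeR). Gadd45g passed without aged vehicle library 4 in GW8510 over young vehicle (-1.59, adjusted p = 0.0168 by edgeR). With no filter edgeR called Gadd45g lower in aged over young vehicle, among 2.72% of all genes. It was also called lower then in GW8510 over young vehicle, among 2.15% of all genes. Phlda1, a relative of Phlda3, gave -1.12 in aged over young vehicle (unadjusted p = 0.00785), a sign opposite to that of Phlda3. The third p53 family gene, Trp73, had at most 0.546 CPM and was not tested.

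The BCL2 family, to which Bax belongs, had 13 of 14 genes tested and 0 called by edgeR or limma-voom in each comparison. At an unadjusted p under 0.05 there were 3, 0 and 2 in the order above. For this and the cell cycle list, the shares of all genes at that p were 19.2%, 4.49% and 16.7%. By DESeq2 6.75%, 0.0763% and 6.03% of all genes were called. DESeq2 called Bnip3l, a mitophagy receptor, in aged over young vehicle (edgeR log2 fold change 0.67, unadjusted p = 0.00585). Of 14 cell cycle genes that p21 is known to repress, 7 were tested and 0 called by edgeR in each comparison, with 4, 0 and 5 at an unadjusted p under 0.05. DESeq2 called 2, 0 and 3 of them, all lower. Leaving out aged vehicle library 4, edgeR tested 9 and called Mki67 as lower in aged over young vehicle, among 0.963% of all genes. In GW8510 over young vehicle it then called Ccnb2, Mki67 and Top2a as lower, among 4% of all genes. With no filter it called 4 in GW8510 over young vehicle, Ccna2 with those 3, among 2.15% of all genes. The median log2 fold change of the 7 tested genes was -1.87 in aged over young vehicle and -2.30 in GW8510 over young vehicle. Mki67, a marker of dividing cells, gave -2.36 and -3.30 in these comparisons, and Top2a, a topoisomerase of dividing cells, gave -2.03 and -2.54. Ccne2, a cyclin of S phase entry, was the most abundant, with 4.36 to 7.49 CPM in aged GW8510, 4.42 to 9.31 CPM in aged vehicle and 3.85 to 4.37 CPM in young vehicle libraries, and its log2 fold change of 0.58 in aged over young vehicle did not pass. The other 13 genes summed to 1.27 to 2.21 CPM in aged GW8510, 1.20 to 3.08 CPM in aged vehicle and 6.29 to 9.44 CPM in young vehicle libraries. No single one of the 13 exceeded 0.693 CPM in an aged library, so fold changes of these genes rest on few counts.

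The markers of other cells of muscle were counted over the same comparisons. In the order above, 19.2%, 4.49% and 16.7% of all genes tested had an unadjusted p under 0.05. DESeq2 called 6.75%, 0.0763% and 6.03% of all genes. The main edgeR fit called 1.21%, 0.0% and 0.749%, and limma-voom 1.08%, 0.0% and 0.728%. In aged over young vehicle edgeR called 1 of 10 fibroblast markers (Cd34, -1.06) and none of the satellite cell (7 tested), endothelial (8), macrophage (10) or muscle fibre (14) markers, with 8, 1, 3, 3 and 1 of these lists at an unadjusted p under 0.05. DESeq2 called 4, 1, 2, 1 and 0, and limma-voom 2 fibroblast markers. In GW8510 over aged vehicle none of these markers was called by edgeR, DESeq2 or limma-voom or had an unadjusted p under 0.05. In GW8510 over young vehicle edgeR and limma-voom called 0, with 4, 2, 1, 0 and 1 at an unadjusted p under 0.05 in the same order of lists, and DESeq2 called 3, 1, 0, 0 and 1. In the GW8510 over aged vehicle comparison the fibroblast markers summed to 315 to 664 CPM in GW8510 and 146 to 597 CPM in aged vehicle libraries, lowest in aged vehicle library 4. With that library left out, edgeR called no fibroblast marker in aged over young vehicle (0.963% of all genes called). In GW8510 over young vehicle it then called 3 as lower, Col1a1, Col1a2 and Col3a1 (4% of all genes called). With no filter edgeR called Cd34, Col1a1, Col1a2, Col3a1, Sdc4, Cldn5 and Mrc1 as lower in aged over young vehicle, among 2.72% of all genes.

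Genes whose pattern over the 9 libraries was most like a member's were taken from 11597 protein-coding genes by Pearson's r of log2 CPM, as a description of libraries that share age, treatment and library 4. For Trp63 these were Tal2 (r = 0.979), Ypel5 (0.973), Lonp2 (0.950), Cpne2 (0.950) and Tbx1 (0.948). For Cdkn1a they were Ric1 (0.976), Sf3b3 (0.976), Ascc2 (0.963), Syk (0.942) and Bace1 (0.941). For Gadd45a they were Capn2 (0.960), Otud5 (0.959), Cstf1 (0.953), Prmt7 (0.950) and Smndc1 (0.946). Among the members themselves, r was 0.83 between Trp53 and Cdkn1a and -0.76 between Phlda3 and Zmat3. None of the 32 other p53 targets was among the genes named as like a member. With so few of the 11597 genes named, that absence says nothing about the targets.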

How the data were processed

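Muscle RNA was sequenced in 9 libraries. The authors deposited 1 table for each pair of groups with expected counts per gene and library, which are not normalized per the file headers, and with TPM, which the authors scaled by gene length and library. The tables also hold a fold ratio, a log2 ratio and p-values, raw and adjusted, that the authors deposited for each pair. Per the submitters' processing notes the genome build was GRCm38 and the tools were CASAVA, HISAT2, StringTie, RSEM, DESeq2 and edgeR; aligner roles, versions, annotation and strand use are not given in the sources used here. All 55536 IDs matched GENCODE M21 (GRCm38), which gave coordinates.

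Of the deposited expected counts 91.4% were whole, and the rest were rounded. Counts of a library were identical between tables (largest difference 0), and 27 symbols turned into dates were restored. The main test was edgeR 4.0.16 (R 4.3.3): filterByExpr, TMM scaling, 1 quasi-likelihood fit of all 9 libraries with 1 mean per group, two-sided F test, Benjamini-Hochberg adjustment over 14414 genes. Standard errors divide the size of a log2 fold change by the root of its F statistic, and intervals use the t distribution. The common dispersion was 0.0814 with 6 residual and 3.88 prior degrees of freedom. CPM uses TMM-scaled totals, and TPM served only to order genes. Alternatives were RLE factors, no filter, the 6 libraries compared, a replicate block, DESeq2 1.42.0, limma-voom 3.58.1 and each library left out. The script was tested on simulated data. Depth was 21718961 to 27437969 counts per library.

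The 10 members and the 13 further gene lists (184 of 185 genes found by symbol) were chosen with earlier results of these data known. All members are named in each comparison; of a list, up to 4 genes past the threshold, or up to 2 with the smallest unadjusted p, together with Mdm4, Trp73, Tnfrsf10b, Plk3, Myog, Ccne2, Krt8, genes called in an alternative and the genes of aged vehicle library 4, chosen after their values were seen.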

Additional observations from a re-analysis of the deposited data

How the results depend on the processing

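Of 180 single-gene values under settings other than leaving out a library, 161 kept their direction and side of the threshold, 9 newly passed, 2 no longer passed and 8 changed sign. The count of members called, in the order aged over young vehicle, GW8510 over aged vehicle and GW8510 over young vehicle, was 1, 0 and 0; it was 2, 1 and 2 by DESeq2, 2, 0 and 2 with no filter, and 0, 0 and 2 with only the 6 libraries compared. With a library left out it ranged from 0 to 1, 0 to 0 and 0 to 2. Genes called were 175, 0 and 108; they were 973, 11 and 869 by DESeq2, 699, 5 and 554 with no filter, and 50, 0 and 469 with only the 6 libraries compared. With a library left out they ranged from 19 (without young vehicle library 3) to 148, from 0 to 2 (without aged vehicle library 3) and from 25 (without aged GW8510 library 3) to 593 (without aged vehicle library 4). After subtracting group means, same-numbered libraries correlated with r = -0.211 to 0.139 over 7 pairs and others with -0.229 to 0.271 over 20. With so few libraries per group, these values cannot decide whether same-numbered libraries shared a batch or handling. With the replicate block 0, 0 and 0 members and 5, 0 and 10 genes were called, and Trp63 in aged over young vehicle gave 1.06 (adjusted p = 0.197 by edgeR), against 1.12 (adjusted p = 0.0674) with only the 6 libraries compared. In settings other than leaving out a library, signs turned for values near 0. With a library left out, signs also turned for the larger values of Gadd45a. With the replicate block aged over young vehicle gave -0.036 for Mdm2, 0.064 for Sesn1 and -0.12 for Bax, GW8510 over aged vehicle 0.0029 for Ccng1 and GW8510 over young vehicle -0.074 for Bax. Sesn1 in aged over young vehicle was 0.0057 with RLE factors and 0.0057 by DESeq2, and Ccng1 in GW8510 over aged vehicle 0.013 by limma-voom. With a library left out, aged over young vehicle ranged from -0.26 to 0.058 for Trp53, -0.017 to 0.16 for Mdm2, -0.33 to 0.049 for Ccng1, -0.23 to 0.12 for Sesn1, -0.057 to 0.082 for Bax and -0.32 to 2.22 for Gadd45a. GW8510 over aged vehicle ranged from -0.19 to 0.20 for Ccng1, -0.18 to 0.35 for Sesn1, -0.10 to 0.21 for Bax, -2.11 to 0.41 for Gadd45a, -0.45 to 0.31 for Phlda3 and -0.44 to 0.061 for Zmat3. GW8510 over young vehicle ranged from -0.18 to 0.30 for Sesn1, -0.087 to 0.22 for Bax and -0.29 to 0.57 for Gadd45a. The cause of these changes was not tested. Trp63 in aged over young vehicle stayed between 0.93 and 1.24, Phlda3 between 1.26 and 2.02, and Cdkn1a in GW8510 over young vehicle between -1.80 and -1.44.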
